A study of Mus musculus with 9 samples.

Results

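The genes described here are a module of 36 genes, out of 55341 in each count file, that mark the stem cells at the base of the intestinal crypt or are targets of Wnt signalling. They were chosen by symbol from known roles and comprise 5 feedback inhibitors of the pathway, 9 other Wnt target genes, 19 crypt base stem cell markers and 3 markers of slow-cycling or reserve stem cells. All 36 were present in the files, and 35 passed the low-count filter. Notum, a secreted enzyme that inactivates Wnt proteins, did not pass: its counts were 4 and 4, 2 and 6, 14, 8 and 0, and 1 and 2 in the library order given below.

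The study measured RNA in small-intestinal crypts of male C57BL/6 mice aged 8 to 12 weeks after deletion of Pcgf6, which encodes a component of a variant form of Polycomb complex PRC1. AhCre mice carry a Cre recombinase that beta-naphthoflavone (BNF) switches on, and Villin CreERT2 mice carry a Cre that tamoxifen (TAM) activates in Villin-expressing intestinal epithelium. There were 2 libraries of AhCre Pcgf6 WT mice with BNF, 2 of AhCre Pcgf6 KO mice with BNF, 3 of Villin CreERT2 Pcgf6 WT mice with TAM and 2 of Villin CreERT2 Pcgf6 KO mice with TAM. Controls of both lines are labelled with the inducing agent too, and driver and agent always go together. The titles place collection 15 days after the agent, while the design text and a second label place it at 7 days, and a description line of the Villin libraries names BNF. The labels do not say that the replicates are separate mice, so the p-values below speak of the spread between libraries only. Values are given in the order AhCre WT, AhCre KO, Villin WT, Villin KO, as CPM, a gene's read count scaled by the total of its library with edgeR's trimmed mean of M-values (TMM).

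In the crypt, Wnt proteins from neighbouring cells bind Frizzled and LRP receptors, which stabilises beta-catenin and lets TCF and LEF factors switch on target genes. Rnf43 and Znrf3 remove Frizzled from the cell surface, and R-spondins bound to Lgr4 or Lgr5 block that removal. Axin2 and Nkd1 dampen the signal inside the cell, and because the pathway itself switches them on, Axin2 is widely used as a readout of it. Lgr5, Ascl2, Olfm4 and Smoc2 mark the cycling columnar cells between Paneth cells at the crypt base, while Lrig1, Hopx and Mex3a have been used to mark slower-cycling cells.

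The promoters of 26 of the 36 members, in 38 windows, were matched by symbol in a RefSeq table for GRCm38.p6. Each window holds 250 bases before the RefSeq start. Windows are shown for 3 of the genes that were lower in the Villin KO libraries, and for Sp5 because it carries the TCF/LEF letters. Those of Lrig1 and Ephb3 are shown without their last 13 and 40 bases, which lie inside the GENCODE gene. Axin2 lies at chr11:108920099-108920348 on the plus strand, Lrig1 at chr6:94700159-94700395 on the minus strand, Ephb3 at chr16:21204545-21204754 on the plus strand and Sp5 at chr2:70474673-70474922 on the plus strand. Each is written 5′ to 3′ along the gene, and capitals mark CTTTGAT, the TCF/LEF core.
Axin2: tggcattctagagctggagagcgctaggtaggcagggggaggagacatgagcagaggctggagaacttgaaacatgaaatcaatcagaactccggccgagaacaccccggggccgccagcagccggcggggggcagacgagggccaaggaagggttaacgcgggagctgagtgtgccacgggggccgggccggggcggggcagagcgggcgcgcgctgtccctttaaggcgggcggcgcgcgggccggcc
Lrig1: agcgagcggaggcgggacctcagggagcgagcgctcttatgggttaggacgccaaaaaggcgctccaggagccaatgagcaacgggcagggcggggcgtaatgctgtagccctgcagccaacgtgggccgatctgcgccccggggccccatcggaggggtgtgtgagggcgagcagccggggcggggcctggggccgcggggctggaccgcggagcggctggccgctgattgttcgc
Ephb3: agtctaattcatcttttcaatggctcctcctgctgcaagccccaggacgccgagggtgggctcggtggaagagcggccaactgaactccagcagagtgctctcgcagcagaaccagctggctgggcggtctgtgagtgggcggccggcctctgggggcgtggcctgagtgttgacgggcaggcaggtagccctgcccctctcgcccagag
Sp5: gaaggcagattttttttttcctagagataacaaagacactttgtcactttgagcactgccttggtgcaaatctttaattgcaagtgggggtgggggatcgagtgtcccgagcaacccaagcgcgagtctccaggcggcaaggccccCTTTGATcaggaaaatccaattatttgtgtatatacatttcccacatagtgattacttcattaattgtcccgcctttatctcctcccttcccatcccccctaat
The letters CTTTGAT, read on both strands, were in the windows of 2 of 26 members (Sp5 and Tnfrsf19), against 3.72% of 27025 genes in the table. The E-box CACGTG was in 4 of 26 members (Cdk6, Hopx, Lef1 and Tnfrsf19) against 6.86%, and the E2F letters TTCCCGC in 2 of 26 (Cdca7 and Mex3a) against 4.38%. The median GC content was 59.2% over the member windows and 52.4% over all windows. These counts describe letters in a short window, and distal elements were not analysed here.

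Libraries held 6455098 to 12377921 counts, with more in every AhCre library than in any Villin library. A floor of 3 counts came to 0.194 to 0.615 CPM, a limit of counting alone. In the AhCre line Pcgf6 itself stood at 14.1 and 10.1 CPM in controls and 7.20 and 5.90 after deletion. In the Villin line it stood at 10.8, 12.7 and 9.44 CPM in controls and 3.07 and 2.47 after deletion, so it was lower in every KO library than in any control of its line. The labels do not say which exons were deleted. All 7 epithelial markers were detected in all 9 libraries. Replicates of the AhCre line resembled each other more closely than those of the Villin line: the chi-square per degree of freedom between replicates was 6.48 and 10.8 in the former and 43.3 to 63.6 in the latter.

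Over all 36 members, the module mean on the log2 CPM scale (prior count 2) was lower in Villin KO and nearly level in AhCre. In AhCre it was 4.62 and 4.64 in controls and 4.75 and 4.65 after deletion. In Villin it was 4.08, 4.25 and 3.57 in controls and 2.92 and 3.40 after deletion. Both Villin KO libraries lay below all 3 controls, by 0.81 between group means, and both AhCre KO libraries lay just above their controls, by 0.07. The role groups differed in how cleanly they separated. The feedback inhibitors had a Villin KO minus WT difference of -0.76, but Villin WT 3, at 1.66, lay between the KO libraries at 2.02 and 1.64. That overlap rests partly on Nkd1 and Notum, which had 0 counts in Villin WT 3 and stood there at -2.20 through the prior count. Of the other feedback inhibitors, Axin2 and Rnf43 were below all controls in both Villin KO libraries, and Znrf3 overlapped. The other Wnt targets gave -0.66 with no overlap. The stem cell markers gave -0.84 with overlap: Villin KO 2, at 4.52, lay above Villin WT 3, at 4.45, while Villin KO 1 was at 3.43. The 3 reserve markers gave -1.15 with no overlap. That fall came from Lrig1 and Mex3a, the latter on 4 and 2 counts in Villin KO, while Hopx was level (log2 fold change 0.07). In the same order of groups, the differences in AhCre were 0.02, 0.17, 0.01 and 0.24. The last rests on Hopx (log2 fold change 1.07), with Lrig1 at -0.02 and Mex3a at -0.34. Without Villin KO 1 the stem cell difference was -0.30 and the feedback difference -0.95, and without Villin KO 2 they were -1.38 and -0.56. The feedback values also rest on Nkd1, at 6 counts in Villin KO 1 and 0 in Villin KO 2. Fewer stem cells in a crypt preparation and less RNA of these genes per cell cannot be told apart in bulk RNA.

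**Figure D1:**
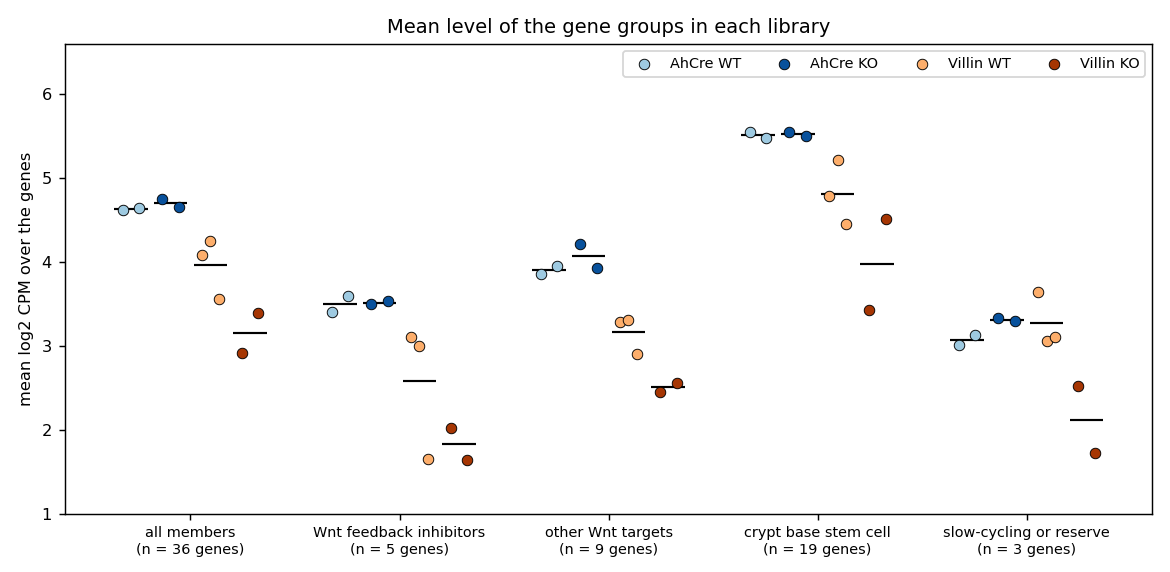
Mean log2 CPM (TMM, prior count 2) of all members and of each role group in the 9 libraries. Each point is a library and each bar the mean of its group. The Villin KO points for all members, 2.92 and 3.40, lie below every other library.

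Averaged over both drivers, with each driver weighted equally, none of the 35 tested members passed the edgeR quasi-likelihood test at a Benjamini-Hochberg adjusted p under 0.05 (0 higher, 0 lower). Of all 16250 genes tested, 1.17% passed, 0.972% as higher and 0.197% as lower. At an unadjusted p under 0.05, 9 members were lower and 0 higher, against 8.49% and 5.37% of all genes. DESeq2 called 0 at an adjusted p under 0.05, against 0.695% of all genes lower and 2.06% higher. The median log2 fold change over the members was -0.33, against -0.09 over all genes, and 30 of 35 were negative. The 9 were Axin2, Ephb2, Ephb3, Lgr5, Slc12a2, Prom1, Scn2b, Lrig1 and Mex3a. Lrig1 had the smallest p of them (log2 fold change -0.92, SE 0.24, adjusted p = 0.105).

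In Villin, 5 of 35 members passed, all lower: Axin2, Ephb3, Lgr5, Slc12a2 and Lrig1. Of all genes, 6.21% passed in either direction, 3.33% higher and 2.88% lower. At an unadjusted p under 0.05, 11 members were lower and 1 higher, against 15.4% and 10.7% of all genes. The member median was -0.80 and that of all genes -0.18. The Villin calls depended on the set of libraries, as did those over all genes. Of all genes, 2.88% passed as lower with all libraries, 1.36% without Villin WT 2 and 0.253% without Villin WT 1. That share also fell on omitting any 1 AhCre library or Villin KO 1. The 5 calls became 2 (Lrig1 and Slc12a2) on omitting any 1 AhCre library or Villin WT 2, and 0 on omitting Villin WT 1 or Villin KO 1. Without Villin WT 3 there were 10 calls, 9 lower and 1 higher (Nrn1), against 4.48% and 4.18% of all genes, and all 5 were among them. Without Villin KO 2 there were 13, with 12 lower and 1 higher (Sox9), against 5.15% and 5.87%, and Ephb3 was not among them. All 5 fold changes stayed negative: without any 1 library, Lrig1 ranged from -2.001 to -1.54, Slc12a2 from -2.37 to -1.61, Axin2 from -1.58 to -1.09, Lgr5 from -1.57 to -1.25 and Ephb3 from -2.97 to -1.55. With all libraries kept, Lgr5 did not pass without the low-count filter (adjusted p = 0.0512), nor Ephb3 with DESeq2 size factors (adjusted p = 0.0511). Axin2, Lgr5 and Ephb3 also did not pass in a fit that paired same-numbered libraries (replicate block), where Villin WT 3 had no partner. None of the 5 passed when the Villin libraries were fitted alone. DESeq2's own test called all 5, plus Ephb2 lower and Nrn1 higher, against 3.96% of all genes lower and 6.7% higher.

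In AhCre, none of the 35 passed in edgeR or in DESeq2, against 0.00615% of all genes in edgeR. The DESeq2 share of all genes is not given here, but DESeq2 called 13 of 26 tuft cell genes higher and 0 lower in AhCre. In edgeR the unadjusted p was under 0.05 for 2 lower and 0 higher members, against 1.72% and 1.81% of all genes. Both AhCre KO libraries lay above both controls for 13 members and below both for 7, against 23.4% and 25.1% of all genes, and the median was 0.20 against a median near 0 over all genes. The fold change was negative in Villin and positive in AhCre for 21 members, negative in both for 8, positive in both for 3, and positive in Villin and negative in AhCre for 3. For all genes these were 5032, 4481, 3011 and 3723 of 16250.

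**Figure D2:**
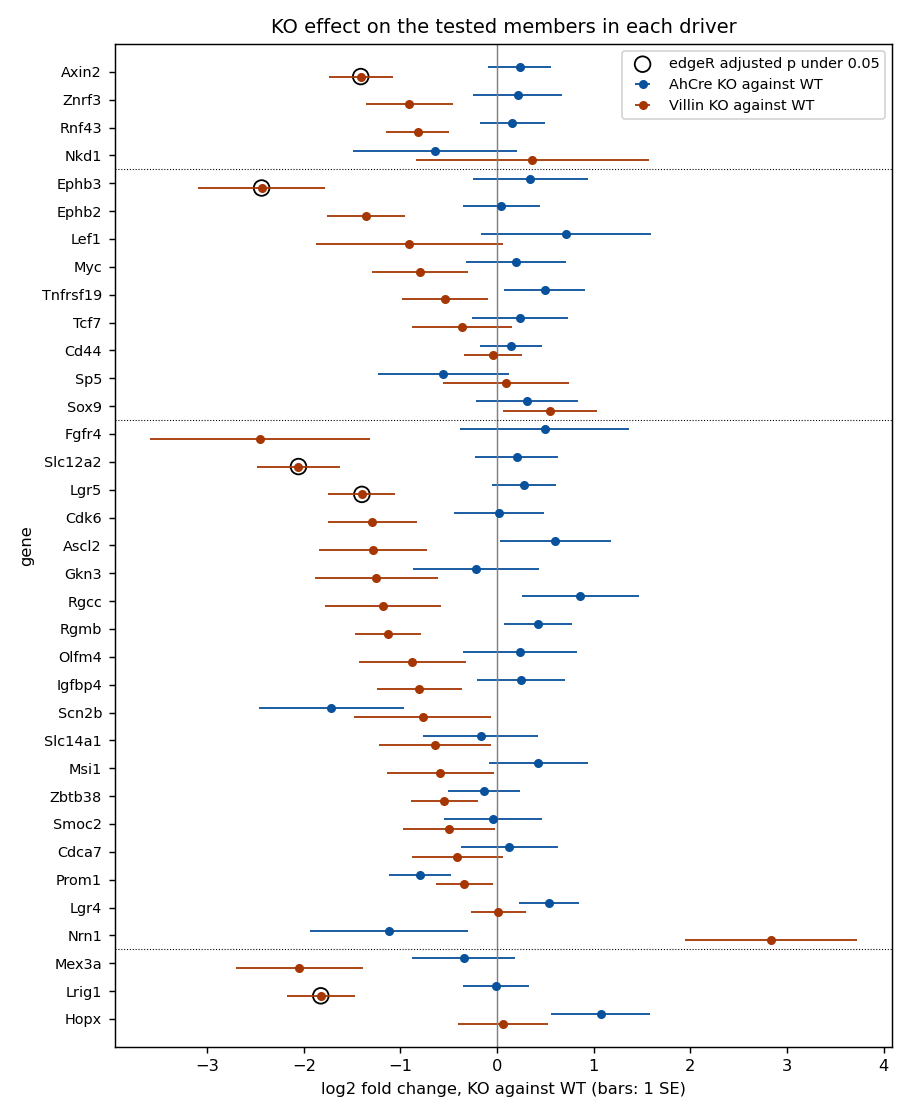
Log2 fold change (KO against WT) of the 35 tested members in each driver, with bars of 1 standard error, ordered by role group. Circled points mark the 5 members past the threshold in Villin, Axin2, Ephb3, Lgr5, Slc12a2 and Lrig1, all below 0.

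A test of the difference between the drivers called 0 of 35 members in edgeR, against 0.0738% of all genes (0.0677% lower, 0.00615% higher in AhCre). At an unadjusted p under 0.05, 9 members had a higher AhCre than Villin effect and 1 a lower, against 9.55% and 6.32% of all genes. DESeq2 called 2, Slc12a2 as higher in AhCre and Nrn1 as lower, against 0.591% and 1.74% of all genes. The driver effects of single members are therefore given side by side and not called different.

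Among the feedback inhibitors, only Axin2, a scaffold of the beta-catenin destruction complex, passed in Villin. Axin2 (chr11:108920349-108950783, plus strand) stood at 62.5 and 79.3 CPM in AhCre controls, 88.5 and 78.1 after deletion, 18.2, 28.5 and 20.6 in Villin controls, and 7.58 and 9.26 after deletion. Both Villin KO libraries lay below all Villin controls, and the AhCre groups overlapped. The Villin log2 fold change was -1.41 (SE 0.33, edgeR adjusted p = 0.0320) and the AhCre one 0.23 (SE 0.33). Rnf43, a ubiquitin ligase that clears Frizzled, stood at 59.7 and 65.1, 71.0 and 68.4, 32.7, 55.7 and 34.7, and 26.8 and 19.7 CPM. Its KO libraries lay below the controls in Villin and above them in AhCre, with fold changes of -0.82 (adjusted p = 0.137) and 0.16 that did not pass. Znrf3, the paralog of Rnf43, had Villin WT libraries from 8.86 to 26.8 CPM and KO libraries at 8.40 and 13.3, which overlap. Nkd1, which binds Dishevelled, was at or under 3.21 CPM in every library and was listed at 0 in Villin WT 3 and Villin KO 2.

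Among the other Wnt targets, the Eph receptors had the lowest Villin fold changes. Ephb2 and Ephb3 are receptors whose gradient along the crypt axis keeps cells in position, and their ephrin ligands lie on the cells above. Ephb3 (chr16:21204755-21223305, plus strand) stood at 10.7 and 13.3 CPM, 17.5 and 13.1, 21.7, 7.57 and 4.43, and 1.43 and 2.62. The Villin KO libraries were the lowest of the 9, although the controls spanned a wide range. The Villin log2 fold change was -2.44 (SE 0.66, adjusted p = 0.0481) and that in AhCre 0.34. Ephb2 stood at 42.5 and 46.4, 48.2 and 43.5, 24.1, 28.7 and 12.1, and 10.4 and 6.63 CPM. Its Villin groups did not overlap either, but the fold change of -1.35 (SE 0.40, adjusted p = 0.0652) missed the threshold.

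None of the transcription factors of the group passed in either driver. Myc, which drives cell growth, was at 10.04 CPM in Villin KO 1 and 38.3 in Villin KO 2, against 28.0 to 62.1 in Villin WT. Sox9, a factor of crypt base and Paneth cells, was at 71.3 CPM in Villin KO 1, above all Villin controls (21.2 to 34.3), and at 15.7 in Villin KO 2, below them. Cd44, a hyaluronan receptor, stayed between 23.5 and 42.1 CPM in all 9 libraries. Sp5, Tcf7 and Tnfrsf19 had Villin fold changes of 0.09, -0.36 and -0.54, none past the test. Lef1 was under 1.5 CPM everywhere and at 0 counts in Villin KO 1. Tcf7, Lef1, Cd44 and Myc are also expressed by lymphocytes, whose 20 markers summed to 134.6 CPM in Villin WT 2 and 3031 in Villin WT 3. These markers summed to 552.9 CPM in Villin KO 1 and 2750 in Villin KO 2. The part of lymphocyte RNA in the values of Tcf7, Lef1, Cd44 and Myc was not tested.

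**Figure D3:**
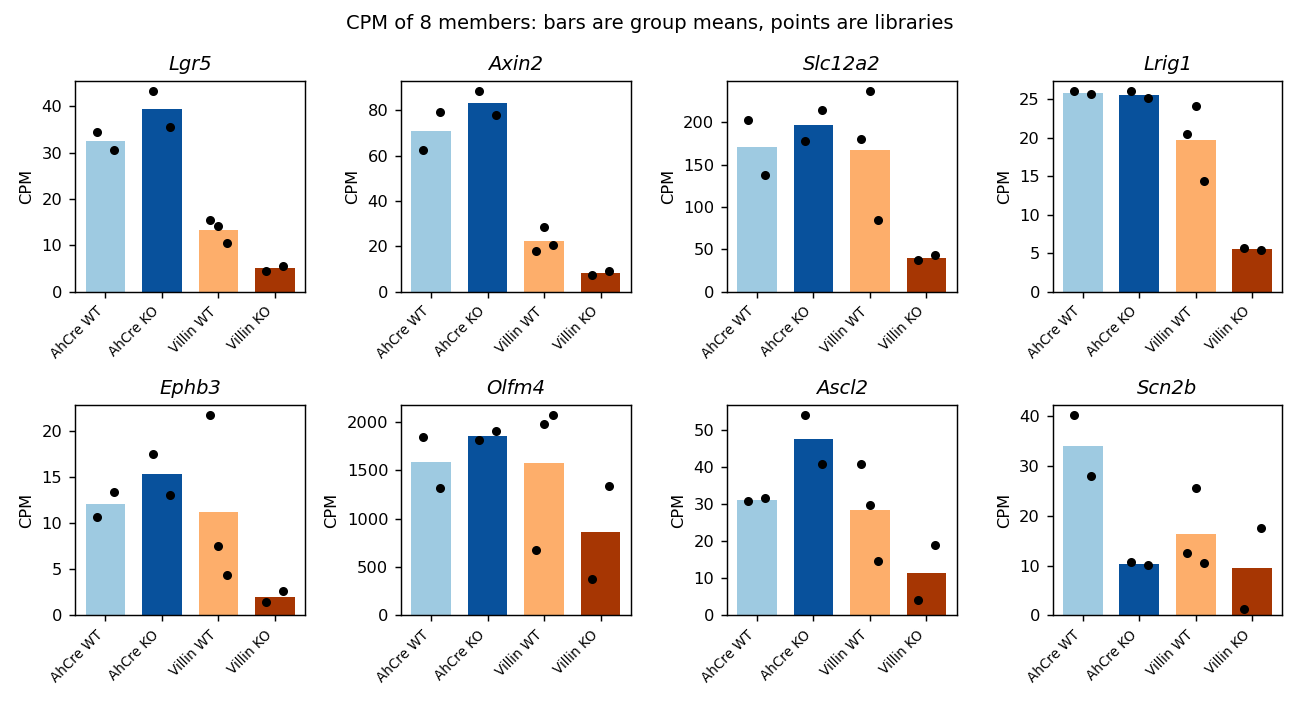
CPM of Lgr5, Axin2, Slc12a2, Lrig1, Ephb3, Olfm4, Ascl2 and Scn2b, 1 panel per gene on its own axis, with points for libraries and bars for group means. The Villin KO points of the 5 called members lie below all 3 Villin WT points, while those of Olfm4 overlap the controls.

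Of the stem cell markers, Lgr5 and Slc12a2 passed in Villin. Lgr5 (chr10:115450311-115587780, minus strand), the R-spondin receptor that defines crypt base columnar cells, stood at 34.4 and 30.6 CPM, 43.3 and 35.6, 15.5, 14.1 and 10.4, and 4.51 and 5.55. Every Villin KO library was below every Villin control, and every AhCre KO library above every AhCre control. The log2 fold change was -1.40 in Villin (SE 0.35, adjusted p = 0.0380) and 0.28 in AhCre (SE 0.33), and the difference between them, 1.68 (SE 0.48), had an adjusted p of 0.171. Slc12a2, a sodium, potassium and chloride cotransporter of crypt cells, stood at 202.6 and 138.0 CPM, 178.3 and 214.0, 179.9, 236.7 and 84.6, and 36.9 and 43.5. The AhCre groups overlapped and both Villin KO libraries lay below 45 CPM. The fold change was -2.06 in Villin (SE 0.43, adjusted p = 0.0214) and 0.20 in AhCre.

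Lgr4, the R-spondin receptor found more widely in the crypt, passed in neither driver. It was at 67.9, 95.3 and 71.9 CPM in Villin controls and 83.2 and 74.8 after deletion, with a fold change of 0.01. Rgmb, a co-receptor for bone morphogenetic proteins, stood at 40.3 and 36.8, 53.5 and 50.2, 34.5, 42.7 and 23.1, and 12.7 and 17.9 CPM. Like Lgr5 it was lower than all controls in Villin KO and higher than both in AhCre KO, but neither fold change passed (-1.13, adjusted p = 0.0686, and 0.43).

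Olfm4 and Ascl2 were low in only 1 of the 2 Villin KO libraries. Olfm4, a secreted glycoprotein abundant in the columnar cells, stood at 1850.0 and 1317 CPM, 1811 and 1909, 681.6, 1983 and 2075, and 376.1 and 1341. The Villin control libraries themselves spanned most of that range, and the fold change of -0.88 (SE 0.55, adjusted p = 0.335) did not pass. Ascl2, the transcription factor that sets the Lgr5 cell state, stood at 30.9 and 31.7, 54.2 and 40.9, 41.0, 29.8 and 14.6, and 4.10 and 18.97 CPM. Villin KO 1 had the lowest value and Villin KO 2 lay inside the control range, with a fold change of -1.28 (adjusted p = 0.171). Cdk6, a G1 cell cycle kinase, gave the same picture: 56.8, 71.1 and 31.4 CPM in Villin controls, 10.7 and 32.5 after deletion, and 90.6 to 93.4 in AhCre (Villin fold change -1.29, adjusted p = 0.104).

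Smoc2 and Cdca7, at 109 and 101 CPM in Villin KO 2 and 28.1 and 29.5 in Villin KO 1, lay inside and below their control ranges of 72.6 to 136 and 49.4 to 119. Smoc2 is a matricellular protein, and Cdca7 a Myc and E2F target. Igfbp4, Gkn3, Slc14a1, Zbtb38 and Rgcc were likewise below their control ranges in Villin KO 1 only. Some margins were narrow: Zbtb38 in Villin KO 2 (74.7 CPM) was level with its lowest control (74.6). Igfbp4 in Villin KO 1 (14.96 CPM) was just under Villin WT 3 (16.4). None of these 7 passed in Villin. Fgfr4, at 0 counts in Villin WT 3, and Msi1, an RNA-binding protein, did not pass either.

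Nrn1, a membrane-anchored protein listed among stem cell signature genes, went the other way in each driver. Its counts were 52 and 54, 14 and 26, 0, 1 and 8, and 16 and 27, or 3.36 and 4.03, 1.13 and 2.25, 0, 0.128 and 1.54, and 3.28 and 4.16 CPM. KO libraries lay above all controls in Villin and below both in AhCre. The fold changes of 2.84 (SE 0.89, adjusted p = 0.0747) and -1.12 rest on few reads. The Villin value ranged from 2.28 to 5.43 on omitting 1 library and passed there only without Villin WT 3 (edgeR adjusted p = 0.0157). With all libraries kept it passed in DESeq2 (adjusted p = 0.0141) and in edgeR without the low-count filter (adjusted p = 0.00576). In the replicate block Villin WT 3 had no KO partner and did not inform the Villin effect. Nrn1 passed there too in edgeR, at 5.47 (adjusted p = 0.0354), close to the 5.43 without Villin WT 3. Of the exon bases of Nrn1, 22.3% overlap Fars2 on the opposite strand, whose reads this protocol cannot separate.

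Prom1 and Scn2b were the 2 members with an unadjusted p under 0.05 in AhCre. Prom1, a membrane glycoprotein of crypt progenitors, stood at 147.5 and 127.7 CPM, 79.8 and 78.8, 92.0, 143.2 and 96.0, and 92.8 and 81.8. The AhCre groups were apart and the Villin groups overlapped. Scn2b, an auxiliary subunit of sodium channels, stood at 40.2 and 27.9, 10.7 and 10.1, 12.6, 25.5 and 10.6, and 1.23 and 17.6 CPM. The AhCre fold changes were -0.79 (unadjusted p = 0.0291) and -1.72 (unadjusted p = 0.0408) in the edgeR fit of all 9 libraries, each with an adjusted p of 1.

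When the 4 AhCre libraries were fitted alone, so that only their own spread counted, 5 of 34 members passed, against 6.43% of 16257 genes. Scn2b (-1.70, edgeR adjusted p = 4.05e-05) and Prom1 (-0.78, adjusted p = 0.00519) were lower. Hopx (1.09, adjusted p = 0.00368), Rgcc (0.88, adjusted p = 0.0113) and Ascl2 (0.62, adjusted p = 0.0468) were higher. Hopx and Rgcc are given in full because they passed here, a choice made after their values were seen. Hopx, a homeodomain protein and reserve marker, stood at 6.52 and 7.23 CPM in AhCre WT and 14.5 and 14.5 in AhCre KO, with 28.2, 10.3 and 22.2 in Villin controls and 30.3 and 12.0 after deletion. Of its exon bases, 27.2% overlap the antisense gene Hopxos. Rgcc, a cell cycle regulator, stood at 10.3 and 10.6, 20.4 and 17.6, 18.7, 8.21 and 15.99, and 1.64 and 10.6. Paneth cell genes were higher in the same AhCre KO libraries, with a mean log2 CPM of 7.77 and 7.84 against 7.00 and 6.96 in the controls, and their part in these 5 values was not tested. The 5 Villin libraries fitted alone called 0 of 33 members, against 1.89% of 13673 genes. At an unadjusted p under 0.05, 8 members were lower and 1 higher there, against 6.87% and 9.9% of those genes.

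Of the reserve markers, Lrig1 had the smallest p of any member in Villin. Lrig1 (chr6:94604529-94700158, minus strand), which restrains ErbB receptors, stood at 26.1 and 25.7 CPM, 26.03 and 25.2, 20.5, 24.1 and 14.5, and 5.74 and 5.399. The 4 AhCre libraries were nearly level and the Villin KO libraries were below all 3 controls. The fold change was -1.82 in Villin (SE 0.35, adjusted p = 0.0169) and -0.02 in AhCre. Mex3a, an RNA-binding protein, stood at 2.78 and 3.28, 2.43 and 2.34, 3.06, 2.05 and 1.73, and 0.819 and 0.309 CPM, on only 4 and 2 counts in Villin KO. It was the 1 member whose KO libraries lay below all controls in both drivers, against 4.12% of all genes. No member lay above all controls in both, against 3.42% of all genes. Its Villin fold change was -2.05 (adjusted p = 0.0788).

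**Figure D4:**
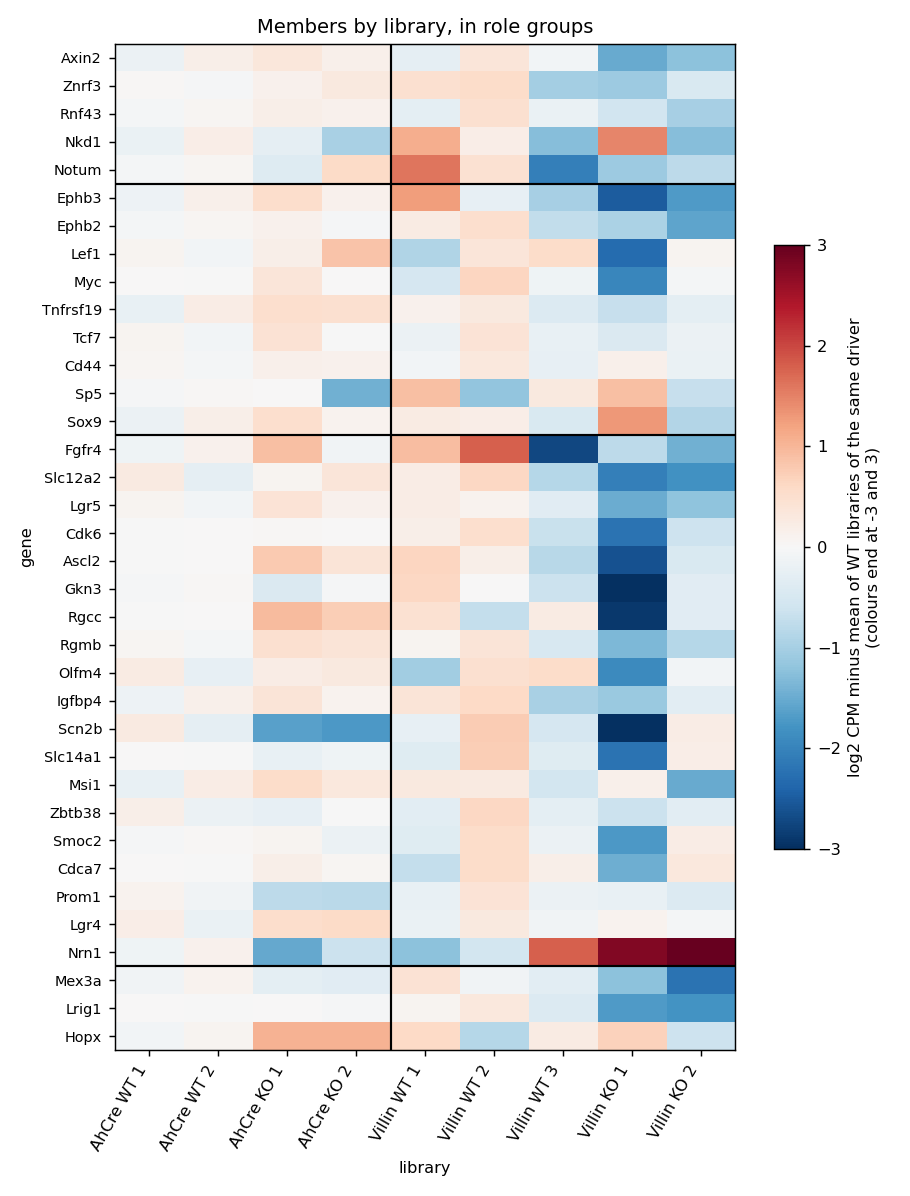
Log2 CPM of each member in each library, minus the mean of that member over the WT libraries of the same driver, with members grouped by role and colours ending at -3 and 3. Villin KO 1 holds most of the dark blue cells: there, 21 of the 35 tested members have their minimum among the 5 Villin libraries, against 26.9% of all genes, and 7 in Villin KO 2, against 22%.

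The Villin KO libraries differed from each other across the module. Both lay below all 3 controls for 9 members (Axin2, Rnf43, Ephb2, Ephb3, Lgr5, Rgmb, Slc12a2, Lrig1 and Mex3a), against 19.8% of all genes. Both lay above for Nrn1 alone, against 14.5%. Villin KO 1 was below all controls while Villin KO 2 was within their range for 16 members, against 13.4% of all genes. These 16 were Ascl2, Cdca7, Cdk6, Gkn3, Igfbp4, Lef1, Myc, Olfm4, Rgcc, Scn2b, Slc14a1, Smoc2, Tcf7, Tnfrsf19, Zbtb38 and Znrf3. In all, Villin KO 1 was below the controls for 25 members and Villin KO 2 for 12, against 35.7% and 33% of all genes. Villin KO 1 was above them for 5 members, against 27.8% of all genes. Of these, Villin KO 2 was within the control range for 3 (Hopx, Nkd1 and Sp5), against 9.02%, below it for Sox9 and above it for Nrn1.

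**Figure D5:**
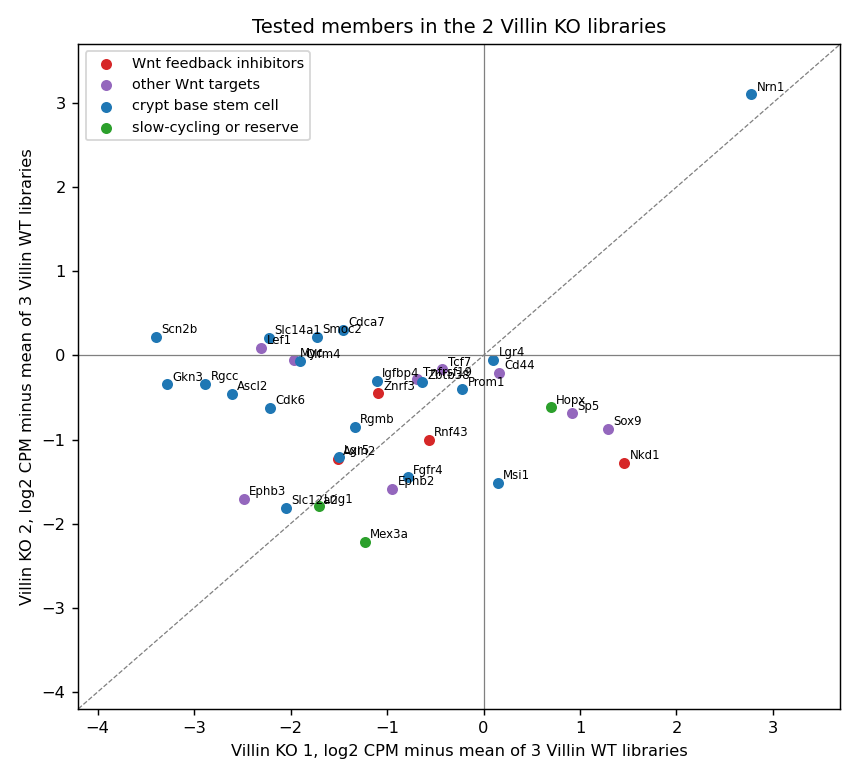
Log2 CPM of each tested member in Villin KO 1 (x axis) and Villin KO 2 (y axis), each minus the mean of the Villin WT libraries, with a dashed line of equality. Points in the lower left, such as Lrig1 and Slc12a2, are low in both, while 22 of 35 members lie lower in Villin KO 1 than in Villin KO 2.

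Marker genes of other cell types also differed between these libraries. The 36 proliferation genes had a mean log2 CPM of 5.44 to 5.95 in Villin WT, 3.63 in Villin KO 1 and 5.36 in Villin KO 2, with summed levels of 2492 to 2826 CPM in the controls and 615.6 to 2011 in Villin KO. All 36 had a negative Villin fold change (median -0.96), as had 58.5% of all genes, and 4 passed as lower, against 2.88% of all genes. The 30 absorptive enterocyte genes summed to 37844 to 60728 CPM in Villin WT, 114564 in Villin KO 1 and 80494 in Villin KO 2. Of these genes, 14 passed as higher with 0 lower, against 3.33% and 2.88% of all genes. In AhCre, their median was -0.22. The 26 tuft cell genes summed to 447.2 to 600.0 CPM in Villin WT, 9081 in Villin KO 1 and 1701 in Villin KO 2. In the other line they summed to 567.2 to 599.4 CPM in AhCre WT and 2303 to 2333 in AhCre KO. The 20 Paneth cell genes summed to 3459 to 22897 CPM in Villin WT, 7716 in Villin KO 1 and 14052 in Villin KO 2. The 22 stromal markers summed to 86.6 to 277.9 CPM in Villin WT and 424.5 to 558.3 in Villin KO, with 4 of 16 tested called higher and 0 lower, and 2 to 5 of the 22 at 0 in each Villin library. The 7 epithelial markers summed to 8897 to 11847 CPM in Villin WT and 13456 to 17053 in Villin KO. The part of these shifts in the levels of the module was not tested.

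The control libraries of the 2 lines also differed. Of the 35 members, 3 passed as higher in AhCre WT than in Villin WT and 0 as lower, against 4.04% and 3.53% of all genes: Axin2 (1.66, edgeR adjusted p = 0.0130), Sox9 (2.03, adjusted p = 0.0309) and Lgr5 (1.28, adjusted p = 0.0312). Both AhCre WT libraries lay above all Villin WT libraries for 19 members and below for 2, against 26.5% and 23.8% of all genes. The member median was 0.48, and that of all genes -0.07. Calls over all genes also changed with the libraries: 4.04% passed as higher with all, 0.635% without Villin WT 1 and 1.78% without Villin WT 3. That share also fell on omitting any 1 AhCre library. On omitting Villin WT 1 or either AhCre control the 3 calls became 0, on omitting either AhCre KO library 1 (Axin2), and on omitting Villin WT 3 there were 2 calls, of which only Axin2 was among the 3. On omitting Villin WT 2 there were 8 calls, 7 higher and 1 lower (Hopx, -1.83), against 8.45% and 10.4% of all genes. On omitting either Villin KO library the fold change of Hopx was -1.55. Driver, inducing agent and any difference in library preparation cannot be told apart in this contrast.

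Per kilobase of exon, Olfm4 had the highest level of the module in each group, with 534.6 CPM per kb in AhCre WT, 533.4 in Villin WT and 289.9 in Villin KO. It made up 38.0% to 70.6% of the summed CPM of the members, so a plain sum over the module would mainly follow Olfm4. In AhCre WT it was followed by Cdca7 (37.7 CPM per kb), Smoc2 (30.8) and Sox9 (29.3), and Lef1 was lowest at 0.0548.

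The rest of the Wnt pathway was read from 91 other genes, of which 71 passed the low-count filter. In edgeR 0 of them were called on average, in Villin or in AhCre. At an unadjusted p under 0.05, 5 were higher and 5 lower on average, 3 higher and 15 lower in Villin, and 2 higher and 0 lower in AhCre. The shares of all genes were 5.37% and 8.49%, 10.7% and 15.4%, and 1.81% and 1.72%. DESeq2 called 0 on average, against 2.06% of all genes higher and 0.695% lower. It called 1 higher and 2 lower in Villin, against 6.7% and 3.96% of all genes, and 0 in AhCre. The median fold changes were -0.12, -0.40 and 0.13. By role, the Villin median was -0.74 for 13 Wnt receptors and co-receptors, -0.40 for 9 ligands and R-spondins, -0.05 for 17 intracellular components, -0.16 for 14 nuclear factors, 0.41 for 5 secreted inhibitors and -0.88 for 13 further target genes.

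The 3 with the smallest p on average were Soat1, Mycl and Bcl9. Soat1, an enzyme that esterifies cholesterol, stood at 100.5 and 93.3 CPM, 125.5 and 122.1, 22.6, 43.6 and 37.2, and 119.6 and 55.4, so that its KO libraries lay above the controls in both drivers (average fold change 0.85, adjusted p = 0.183). Mycl, a Myc family factor, stood at 20.3 and 23.3, 24.98 and 12.8, 7.73, 12.3 and 3.47, and 1.64 and 2.01 CPM (average -1.15, adjusted p = 0.193). Bcl9, a beta-catenin coactivator, stood at 34.6 and 43.4, 38.3 and 38.7, 22.6, 22.8 and 22.5, and 12.3 and 5.09 CPM (average -0.71, adjusted p = 0.260). For Mycl and Bcl9 the Villin KO libraries were below all Villin controls and the AhCre groups overlapped.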

How the data were processed

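RNA of crypts from the small intestine was made into 9 Smart-seq2 libraries from 2 ng each, per the labels' protocols. Smart-seq2 copies polyadenylated transcripts and does not keep the strand. The authors deposited whole-number read counts per gene, not normalized, 1 file per library. STAR 2.7, featureCounts and DESeq2 were used with mm10 or GRCm38, per the submitters' processing notes; which tool did what, and with which annotation and strand option, is not given in the sources used here. Every row name (100%) matched GENCODE M21, whose GRCm38 coordinates, exon lengths and overlaps were used. Of the members, 10 share exon bases with another gene, 4 of them over 10% (Notum, Hopx, Nrn1 and Lef1).

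In R 4.3.3 with edgeR 4.0.16, 16250 genes passed filterByExpr, libraries were scaled by TMM, and 1 quasi-likelihood fit of all 9 libraries gave each group its mean (5 residual and 7.43 prior degrees of freedom). Contrasts were the KO effect averaged over drivers, in each driver, their difference, and the AhCre against the Villin controls. A call needed a Benjamini-Hochberg adjusted p below 0.05 over all genes tested. Scripts were tested on simulated data. There the averaged contrast recovered 4 of 50 genes changed 1.5-fold, 19 of 50 changed 2-fold and 49 of 50 changed 4-fold. Changes of 2-fold or less can therefore be missed. Medians and module means have no test.

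Values in every library are given for Lgr5, Olfm4, Ascl2, Axin2 and each member with an unadjusted p under 0.05 on average or in either driver; of the other Wnt genes, those called in any KO contrast or, if under 3, the 3 with the smallest p on average. The members and lists were chosen with earlier results of these data known. Alternatives were DESeq2 1.42.0 and its size factors, other low-count filters, a prior count of 0.5, a replicate block, 1 driver fitted alone and leaving out each library.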

Additional observations from a re-analysis of the deposited data

Results flagged for a closer look

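For 4 members every KO library moved one way in Villin and the other way in AhCre, a pattern that 9.68% of all 16250 genes tested also showed. Rnf43 had a log2 fold change of -0.82 in Villin and 0.16 in AhCre, Lgr5 of -1.40 and 0.28, Rgmb of -1.13 and 0.43, and Nrn1 of 2.84 and -1.12. In the edgeR test of the difference itself, none passed: the Benjamini-Hochberg adjusted p was 0.332 for Rnf43, 0.171 for Lgr5, 0.190 for Rgmb and 0.183 for Nrn1. DESeq2 called the difference for Nrn1 and not for the other 3.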

How the results depend on the processing

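No result changed its direction past a test under any alternative. Members called on average, 0, became 1 without a low-count filter (Scn2b) and 0 to 2 on leaving out 1 library (Slc12a2 without Villin WT 3; Gkn3 and Scn2b without Villin KO 2), and the median of -0.33 ranged from -0.66 to -0.16 on leaving out 1 library. Members called in Villin, 5, became 3 with the replicate block (Lrig1 and Slc12a2 lower, and Nrn1 higher at 5.47 with an adjusted p of 0.0354; Axin2, Lgr5 and Ephb3 did not pass), 0 with Villin fitted alone and 0 to 13 on leaving out 1 library, and the Villin median ranged from -1.52 to -0.38. Members called in AhCre, 0, became 5 with AhCre fitted alone, and the AhCre median ranged from 0.10 to 0.22 on leaving out 1 library. The difference between drivers, 0, became 3 without a low-count filter, 2 in DESeq2 and 0 to 3 on leaving out 1 library. Members higher or lower in AhCre WT than in Villin WT, 3, became 8 without a low-count filter and 7 in DESeq2 (Hopx lower in each, the others higher), and 0 to 9 on leaving out 1 library. Leaving out Villin WT 2 and Villin KO 1 together, chosen after seeing the data, gave 0 calls in Villin with a median of -0.39, a median of -0.10 on average, 1 call in AhCre and 14 in the control contrast. Among these 14, Hopx alone was lower (-1.83), and 14.6% of all genes passed as higher there and 15.2% as lower. Where an omission left 1 library in a group, that library was assumed to vary like the other groups. Without Villin WT 3, 0.382% of all genes passed as lower on average. Calls over all genes also rose without Villin KO 2, both on average and in the difference. In the control contrast they rose without either Villin KO library. Without a low-count filter, 0.356% of 46857 genes passed as lower on average. In the difference, 0.337% passed there as higher in AhCre and 0.388% as lower, against 2 and 1 of the members. The control contrast called 2.53% of those genes higher and 2.36% lower, and in DESeq2 6.33% and 7.3% of 16250. The causes were not tested.

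Same-numbered libraries did not deviate together (r = -0.107 in AhCre, 0.061 and -0.216 in Villin), so the numbers were taken as names only. In the replicate block Villin WT 3 had no KO partner and did not inform the Villin effect. The block left 0 calls on average, in AhCre and in the difference. Its Villin calls, 2 lower and 1 higher, stood against 0.665% and 1.18% of all genes. Crossing the numbers in AhCre, added after seeing the data, gave 0 calls in Villin and 0 on average. With 2 or 3 libraries a group and 0 to 17 counts for Notum, Lef1, Nkd1 and Mex3a in each Villin library, small changes of these members were not detectable at this depth.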
